A study of Mus musculus with 12 samples.

Results

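Rora, Kat5, Lhx1, Lhx5, Foxp2, Skor2, Ebf1 and Ebf3 are 8 regulators of gene expression in cerebellar Purkinje cells, and their RNA was followed here across genotype and wheel running in a mouse model of spinocerebellar ataxia type 1 (SCA1). The genes were chosen by name, with earlier results of these data known, and were found by Ensembl ID among 56941 genes in the count tables. The 8 genes all passed the filter on low counts, as did 20341 of those 56941 genes.

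Purkinje cells are the output neurons of the cerebellar cortex and carry the main burden of disease in SCA1, in which an expanded glutamine tract in ataxin-1 is toxic to them. Rora is an orphan nuclear receptor that drives the growth and upkeep of the Purkinje dendrite, and mice that lack it (staggerer) lose Purkinje cells and are ataxic. Kat5, also named Tip60, is a lysine acetyltransferase found in most cells, known as a co-activator that joins Rora and ataxin-1 in a shared complex. Lhx1 and Lhx5 are LIM-homeodomain factors and Skor2 is a co-repressor, and all act in Purkinje differentiation. Foxp2 is a forkhead factor of Purkinje cells and cerebellar nuclei, and Ebf1 and Ebf3 are helix-loop-helix factors of developing neurons.

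Bulk RNA from the cerebellum was sequenced in 12 mice of both genotypes, WT and SCA1, which were either sedentary or given exercise, with 3 mice in each of the 4 groups. SCA1 mice were heterozygous for a knock-in allele at Atxn1 (Atxn1 154Q/2Q), so the mutant protein was made wherever Atxn1 is active, and WT mice were C57BL/6J littermates. Both sexes were used. Exercise mice lived alone with a running wheel for 12 weeks, from 4 to 16 weeks of age, whereas sedentary mice were housed in groups without a wheel, so that running and housing cannot be told apart. Mice of all groups went through behavioural testing after the wheels were taken away, and the tissue came from a bisected brain.

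Between 20556802 and 32127508 read pairs per library were counted on genes, out of 55059831 to 69065648. Markers of Purkinje and granule cells were present in all 12 libraries, as the tissue label calls for, which does not exclude other tissue beside the cerebellum. SCA1 sedentary mouse 16 and SCA1 exercise mouse 55 stood apart. Of their read pairs 6.33% to 6.38% mapped to several places, against 2.08% to 3.46% in the other 10 libraries. Read pairs with no gene on the counted strand made up 39.3% to 44.1%, against 46.0% to 58.7%. Both were SCA1 mice, so what set them apart cannot be fully separated from genotype. Their summed brainstem markers were 53.1 to 55.9 CPM (the count of a gene scaled to the size of its library), against 0.751 to 9.60 CPM in the other 10 libraries. Their granule cell markers summed to 2795 to 3680 CPM against 4800 to 5793 CPM, and their oligodendrocyte markers to 5590 to 7008 CPM against 2511 to 4227 CPM. Summed choroid plexus markers ran from 13.3 to 1908 CPM over the libraries, so the tissue taken was not the same in each. Where leaving mice 16 and 55 out changed a count of calls, turned a direction or moved a member's difference, the value without them is given as well. For the gene lists this was computed after the data had been seen. Chromosome Y genes summed to over 100 CPM in 3 sedentary and 2 exercise libraries of WT mice and in 2 sedentary and 1 exercise libraries of SCA1 mice, so the sexes were not spread evenly over the groups. The study's methods describe 2 libraries of lower RNA integrity with altered fragmentation, and which libraries these are was not given in the sources used here.

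Atxn1 (ENSMUSG00000046876, chromosome 13, 45703231 to 46118484, minus strand) served as the check of the targeted gene. Its level was 153 ± 8.28 CPM in WT sedentary, 166 ± 6.05 CPM in WT exercise, 172 ± 17.9 CPM in SCA1 sedentary and 175 ± 24.3 CPM in SCA1 exercise mice (SD, n = 3 each). The genotype difference was 0.12 on the log2 scale (SE 0.08, adjusted p = 0.629, edgeR), and the groups overlapped. The allele differs from WT in the length of its glutamine tract, which counts per gene do not show, so this level does not check the genotype labels.

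Per kilobase of exon, the 8 genes covered a wide range of levels in the 6 WT libraries. The length took in the exons of all annotated transcripts, 29 for Foxp2 and 12 for Rora but 1 each for Lhx5 and Skor2. The order thus depends in part on the annotation. Rora stood at 37.9 ± 3.34 CPM per kb (SD, n = 6), the highest, followed by Lhx1 at 16.8 ± 1.02, Kat5 at 13.1 ± 1.35 and Ebf1 at 9.47 ± 1.04 CPM per kb. Skor2 at 5.65 ± 0.364 and Lhx5 at 5.21 ± 0.682 CPM per kb were neighbours whose ranges overlapped. Ebf3 at 1.42 ± 0.126 and Foxp2 at 0.791 ± 0.208 CPM per kb were the lowest. Every other pair of neighbours in this order had ranges that did not overlap. In these RNA pools Lhx1 thus exceeded its close relative Lhx5 by 2.66 to 3.62 times per kb in each WT library, and Ebf1 exceeded Ebf3 by 4.99 to 7.45 times.

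**Figure D1:**
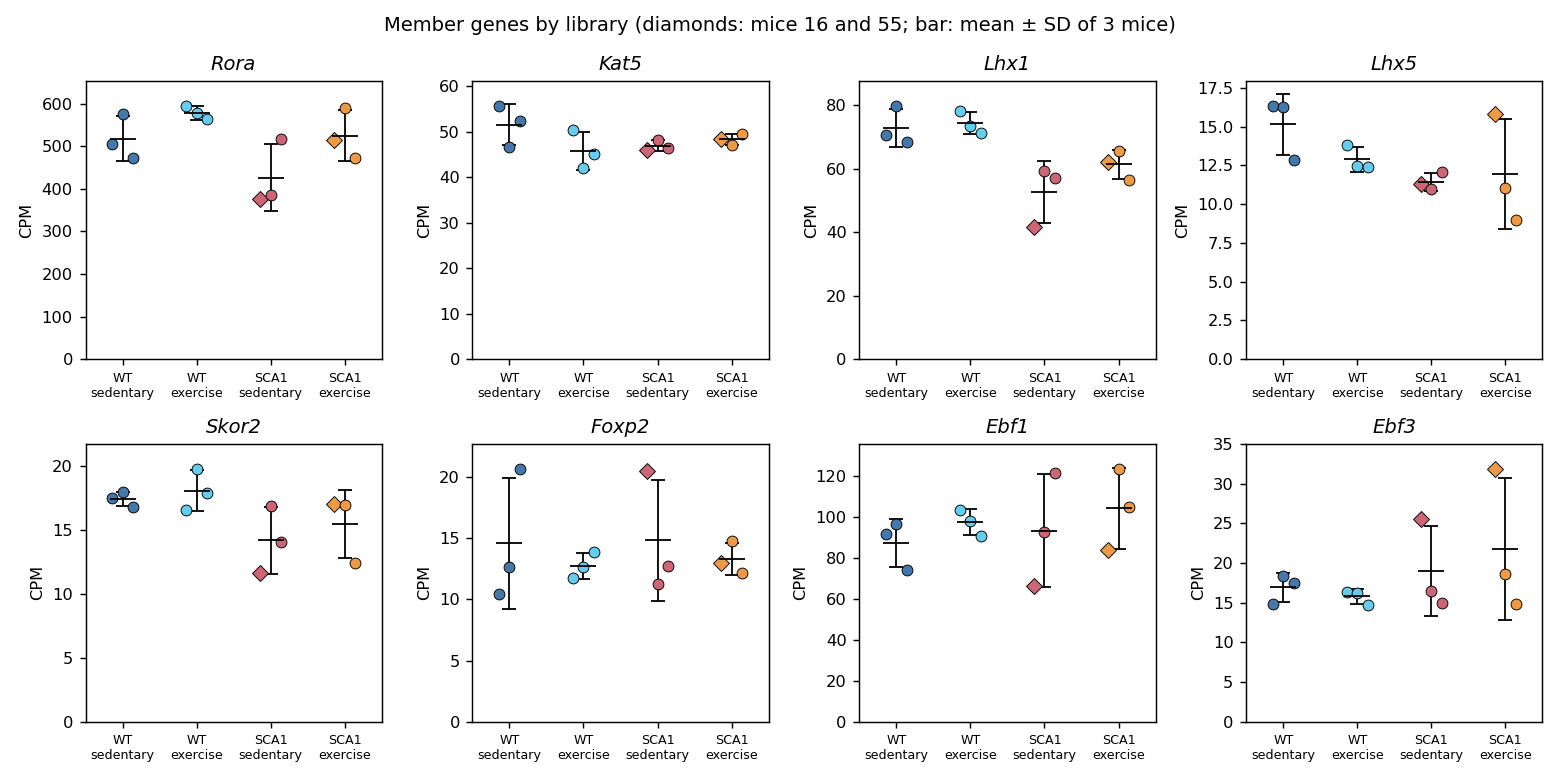
Level of each of the 8 genes in CPM (vertical axes, from 0) in the 12 libraries, grouped by genotype and activity. Points are single mice, diamonds are mice 16 and 55, and bars give the mean ± SD of 3 mice. For Lhx1 all SCA1 points lie under the WT points, while the groups overlap for the other 7 genes taken over both activity groups.

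Lhx1 (ENSMUSG00000018698, chromosome 11, 84408803 to 84416368, minus strand, 5 exons) showed the clearest separation by genotype. It was at 70.7, 79.7 and 68.4 CPM in WT sedentary mice 116, 117 and 192, and at 78.2, 73.6 and 71.3 CPM in WT exercise mice 121, 197 and 201. It was at 41.6, 59.4 and 57.1 CPM in SCA1 sedentary mice 16, 194 and 195, and at 62.2, 65.5 and 56.4 CPM in SCA1 exercise mice 55, 122 and 198. All 6 SCA1 libraries lay below all 6 WT libraries, and mouse 16 was the lowest of the 12. Over both activity groups the difference was -0.37 on the log2 scale (SE 0.09, 95% interval -0.57 to -0.18), a fitted change of -22.8%. It had an unadjusted p of 0.00138 and an adjusted p of 0.163 in edgeR's quasi-likelihood test with Benjamini-Hochberg adjustment over all genes, so it did not pass. An exact two-sided permutation test on log2 CPM, with genotype permuted within each activity group, gave p = 0.005, which is the smallest that its 400 arrangements allow. In DESeq2 the adjusted p was 0.0438, at a log2FC of -0.37 that stayed under the fold limit of 0.5. Without mice 16 and 55 the difference was -0.29 (95% interval -0.45 to -0.13, adjusted p = 0.0762, edgeR). In DESeq2 without these mice it was -0.30 with an adjusted p of 0.00864, again under the fold limit of 0.5.

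In sedentary mice alone Lhx1 differed between the genotypes by -0.47 (SE 0.13, 95% interval -0.75 to -0.19, adjusted p = 0.258, edgeR), and in exercise mice by -0.28 (SE 0.13, 95% interval -0.56 to 0.00, adjusted p = 0.960). These values were -0.31 (95% interval -0.53 to -0.08, adjusted p = 0.125) and -0.28 (95% interval -0.50 to -0.05, adjusted p = 0.545) without mice 16 and 55. The groups did not overlap in either comparison. With 3 mice against 3, an exact two-sided permutation test cannot go below p = 0.1, the value it gave for both. In bulk RNA, fewer Purkinje cells and less of an RNA per Purkinje cell cannot be told apart. The same holds for every gene below, and RNA from other cell types or admixed tissue cannot be separated either.

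The transcript on the opposite strand of Lhx1, Lhx1os, was counted separately because the libraries kept strand. It was at 26.8 to 33.3 CPM in WT and at 16.3 to 33.2 CPM in SCA1 libraries, which overlapped. Read pairs on the strand opposite to Lhx1 made up 3.02% to 5.99% of those over the gene.

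Lhx5 (ENSMUSG00000029595, chromosome 5, 120569764 to 120579292, plus strand, 5 exons) was at 16.3, 16.3 and 12.9 CPM in WT sedentary and at 13.8, 12.5 and 12.4 CPM in WT exercise mice. In SCA1 it was at 11.3, 11.0 and 12.1 CPM in sedentary and at 15.8, 11.1 and 8.96 CPM in exercise mice, the highest being mouse 55. The sedentary groups did not overlap, with a log2 difference of -0.41 (SE 0.19, 95% interval -0.82 to 0.01, adjusted p = 0.503, edgeR). The exercise groups overlapped, with -0.11 (95% interval -0.52 to 0.30). Over both activity groups the difference was -0.26 (SE 0.13, adjusted p = 0.551), and it was -0.37 (adjusted p = 0.154) without mice 16 and 55. Without these mice the difference in the exercise groups was -0.35 (95% interval -0.69 to -0.02, adjusted p = 0.687), against -0.11 with them.

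Rora (ENSMUSG00000032238, chromosome 9, 68561068 to 69295528, plus strand, 10 exons in the canonical transcript) was at 505, 576 and 472 CPM in WT sedentary and at 594, 578 and 564 CPM in WT exercise mice. It was at 375, 386 and 517 CPM in SCA1 sedentary mice 16, 194 and 195, and at 514, 589 and 473 CPM in SCA1 exercise mice 55, 122 and 198. SCA1 sedentary mice 16 and 194 were the lowest of the 12, but mouse 195 lay within the WT range, so the groups overlapped. The genotype difference was -0.28 in sedentary mice (SE 0.14, 95% interval -0.58 to 0.02, adjusted p = 0.527, edgeR) and -0.14 in exercise mice (SE 0.14, 95% interval -0.44 to 0.16, adjusted p = 0.960). Over both it was -0.21 (SE 0.10, 95% interval -0.42 to 0.00, adjusted p = 0.515), and -0.15 (95% interval -0.35 to 0.06, adjusted p = 0.607) without mice 16 and 55. The exact permutation test gave p = 0.06. In sedentary mice the difference moved with single libraries. It was -0.45 (adjusted p = 0.161) without SCA1 mouse 195, -0.20 without SCA1 mouse 16, -0.18 without WT mouse 117 and -0.18 (95% interval -0.47 to 0.11, adjusted p = 0.480) without mice 16 and 55. In exercise mice it was -0.26 (adjusted p = 0.798) without SCA1 mouse 122, -0.07 without SCA1 mouse 198 and -0.11 without mice 16 and 55.

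Skor2 (ENSMUSG00000091519, chromosome 18, 76944100 to 76988037, plus strand) was at 17.5, 18.0 and 16.8 CPM in WT sedentary and at 16.6, 19.8 and 17.9 CPM in WT exercise mice. It was at 11.7, 16.9 and 14.1 CPM in SCA1 sedentary and at 17.0, 16.9 and 12.4 CPM in SCA1 exercise mice. Of the 6 SCA1 libraries, those of mice 194, 55 and 122 reached the lower end of the WT range. The difference over both activity groups was -0.26 (SE 0.11, 95% interval -0.51 to -0.01, unadjusted p = 0.0404, adjusted p = 0.489, edgeR), with an exact permutation p of 0.03, and it was -0.22 (adjusted p = 0.441) without mice 16 and 55.

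Foxp2 (ENSMUSG00000029563, chromosome 6, 14901287 to 15441976, plus strand) was at 10.4, 12.6 and 20.6 CPM in WT sedentary and at 11.7, 12.6 and 13.9 CPM in WT exercise mice. It was at 20.5, 11.3 and 12.8 CPM in SCA1 sedentary and at 13.0, 14.8 and 12.1 CPM in SCA1 exercise mice. WT sedentary mouse 192 and SCA1 sedentary mouse 16 stood well above the other 10 libraries. The genotype difference of 0.04 (SE 0.18, 95% interval -0.35 to 0.44, adjusted p = 0.950, edgeR) was far within the spread between mice, and it was -0.09 without mice 16 and 55.

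Both EBF genes had higher mean levels in SCA1 than in WT, and neither difference passed the test. Ebf1 (ENSMUSG00000057098, chromosome 11, 44508138 to 44898918, plus strand) was at 91.6, 96.4 and 74.0 CPM in WT sedentary and at 104, 98.1 and 90.9 CPM in WT exercise mice. In SCA1 it was at 66.1, 92.5 and 122 CPM in sedentary and at 84.1, 123 and 105 CPM in exercise mice, a range that held both the lowest and the highest library of the 12. The difference was 0.10 (SE 0.14, 95% interval -0.21 to 0.40, adjusted p = 0.836, edgeR). Mice 16 and 55 had the lowest Ebf1 values of their groups, and without them the difference was 0.27 (SE 0.10, 95% interval 0.07 to 0.48, unadjusted p = 0.0126, adjusted p = 0.247).

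Ebf3 (ENSMUSG00000010476, chromosome 7, 136795402 to 136916218, minus strand) was instead highest in those mice. It was at 14.9, 18.4 and 17.5 CPM in WT sedentary and at 16.4, 16.2 and 14.7 CPM in WT exercise mice, and at 25.5, 16.5 and 15.0 CPM in SCA1 sedentary and 31.8, 18.6 and 14.8 CPM in SCA1 exercise mice. The highest values of the 12 were those of mice 55 and 16. The difference over both activity groups was 0.32 (SE 0.18, 95% interval -0.08 to 0.72, adjusted p = 0.581, edgeR) and was 0.01 (95% interval -0.21 to 0.22, adjusted p = 0.990) without them. The ratio of Ebf1 to Ebf3 in CPM per kb ran from 3.05 to 9.57 in SCA1 libraries, against 4.99 to 7.45 in WT.

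Kat5 (ENSMUSG00000024926, chromosome 19, 5653038 to 5660271, minus strand, 14 exons in the canonical transcript) was at 55.5, 46.6 and 52.3 CPM in WT sedentary, 50.3, 42.1 and 45.0 CPM in WT exercise, 45.9, 48.2 and 46.4 CPM in SCA1 sedentary and 48.3, 47.1 and 49.5 CPM in SCA1 exercise mice. All SCA1 values lay inside the WT range. The difference over both activity groups was -0.03 (SE 0.07, 95% interval -0.18 to 0.12, adjusted p = 0.900, edgeR), an interval that leaves out a change of 0.5 in either direction. Kat5 overlaps Rnaseh2c on the other strand, and the strand opposite to Kat5 held 13.4% to 25.9% of the read pairs over the gene. The strand-specific counts leave these out.

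**Figure D2:**
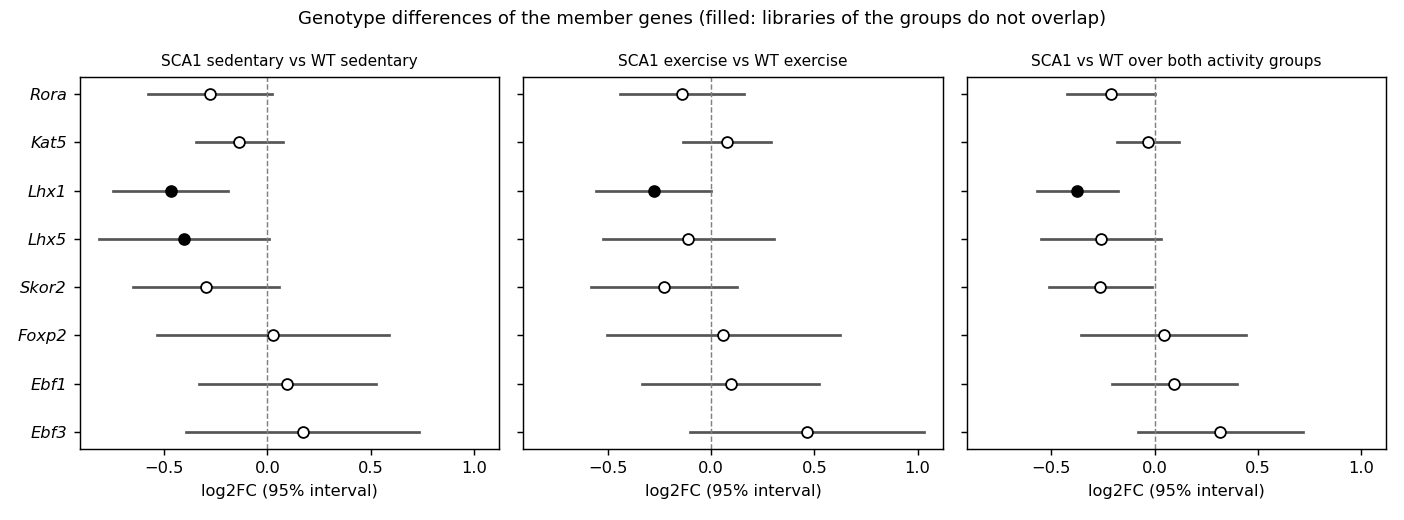
Genotype differences of the 8 genes as log2FC (horizontal axes, SCA1 minus WT) with 95% intervals from edgeR, in sedentary mice, in exercise mice and over both activity groups. Filled points mark genes whose libraries did not overlap between the groups. Lhx1 is filled in all 3 panels and Lhx5 in the sedentary panel, and the interval of Lhx1 over both groups runs from -0.57 to -0.18.

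A gene was called where its adjusted p in edgeR was below 0.05 and its log2FC exceeded 0.5 in size. By this rule 0 of the 8 genes were called between SCA1 and WT over both activity groups, where 0.118% of all genes tested were, and 0 in sedentary mice, where 0.0344% were. With all 12 libraries no gene of all those tested was called in exercise mice (0%). At an unadjusted p under 0.05 the count was 2 of 8 over both activity groups, Lhx1 and Skor2, against 9.81% of all genes. It was 1 of 8 in sedentary mice, Lhx1, against 10.1%, and 0 of 8 in exercise mice against 2.93%. DESeq2 with the same limits also called 0 of the 8. Libraries did not overlap for 1 of 8 genes over both activity groups (background 1.17%), for 2 of 8 in sedentary mice (11.4%) and for 1 of 8 in exercise mice (14.2%). The median log2 difference of the 8 was -0.12 over both activity groups, beside 0.01 over all genes tested, with 5 of the 8 lower in SCA1. The median was again -0.12 without mice 16 and 55, with 6 of the 8 lower. Of the 8 genes 0 were then called (background 0.693%), and 3 had an unadjusted p under 0.05 (background 11.7%), Lhx1, Lhx5 and Ebf1.

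Whether 12 weeks with a wheel changed these genes was tested within each genotype. In WT mice 4 of the 8 were higher and 4 lower with running, and 0 were called or had an unadjusted p under 0.05 in edgeR or an adjusted p under 0.05 in DESeq2 (background 0% and 4.69%). The libraries of the WT groups overlapped for all 8, whereas they did not for 21.2% of all genes. Rora differed by 0.16 (95% interval -0.14 to 0.46) and Lhx1 by 0.03 (95% interval -0.25 to 0.31). Markers of choroid plexus were all 5 higher (median 2.72) and those of oligodendrocytes all 6 lower (median -0.45), with 0 called. Purkinje and granule cell markers had medians of -0.07 and -0.04. Without mice 16 and 55 the choroid plexus marker Clic6 was called (2.01, adjusted p = 0.0342, edgeR). The part of these markers in the members' differences was not tested.

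In SCA1 mice 7 of the 8 had higher fitted levels with running and Foxp2 a lower one, by a median of 0.14 beside -0.01 over all genes. It was 6 of the 8 without mice 16 and 55, with a median of 0.08, and Lhx5 (-0.20) and Skor2 (-0.08) were the lower ones. Rora was at 526 ± 59.1 CPM in SCA1 exercise and 426 ± 79.0 CPM in SCA1 sedentary mice (SD, n = 3 each), a log2 difference of 0.30 (SE 0.14, 95% interval 0.00 to 0.60, unadjusted p = 0.0486, adjusted p = 0.999, edgeR). The groups overlapped, since SCA1 sedentary mouse 195 at 517 CPM exceeded mice 55 and 198. Without mice 16 and 55 the difference was 0.23 (95% interval -0.08 to 0.55), and with single libraries left out it ran from 0.19 without mouse 122 to 0.47 without mouse 195 (adjusted p = 0.584). Lhx1 differed by 0.22 (SE 0.13, 95% interval -0.06 to 0.50), and by 0.06 (95% interval -0.18 to 0.31) without mice 16 and 55. Of the 8 genes 0 were called in edgeR, as of all genes (0%), 1 had an unadjusted p under 0.05 (background 2.17%) and 0 had libraries that did not overlap (4.5%). Markers of cell types moved in the same comparison. All 12 Purkinje markers were higher with running in SCA1 mice, with a median of 0.34, 6 at an unadjusted p under 0.05 and 0 called. Of 9 granule cell markers 7 were higher (median 0.25), as were 6 of 7 markers of Bergmann glia and astrocytes (median 0.23). The counts were 11 of 12 (median 0.12), 6 of 9 (median 0.20) and 7 of 7 (median 0.12) without mice 16 and 55. With all libraries 5 of 5 choroid plexus (median 0.56), 6 of 9 interneuron (0.09) and 4 of 7 brainstem markers (0.23) were higher. Lower were 6 of 7 endothelium and mural markers (-0.12), 4 of 6 oligodendrocyte markers (-0.08) and 4 of 5 microglia markers (-0.05). Without mice 16 and 55 these medians were 0.10, 0.03, -2.56 (3 tested), -0.15, 0.21 and 0.11 in turn. The medians of oligodendrocyte and microglia markers thus changed sign. That of brainstem markers did too, but over 3 genes in place of 7, so the 2 medians are not of the same genes. The part of these markers in the differences of Rora and Lhx1 was not tested.

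The interaction, which tests whether the difference with running depends on genotype, was 0.14 for Rora (95% interval -0.28 to 0.56) and 0.19 for Lhx1 (95% interval -0.20 to 0.59) on the log2 scale. They were 0.07 (95% interval -0.34 to 0.48) and 0.03 (95% interval -0.28 to 0.34) without mice 16 and 55. The interaction of Rora was 0.31 without mouse 195 and 0.02 without mouse 122. Adjusted p values of the 8 genes were 0.9999 or above in edgeR, with 0 called and 0 at an unadjusted p under 0.05 (background 0% and 3.78%), and DESeq2 called 0. The comparisons above share groups, so their values are not independent.

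**Figure D3:**
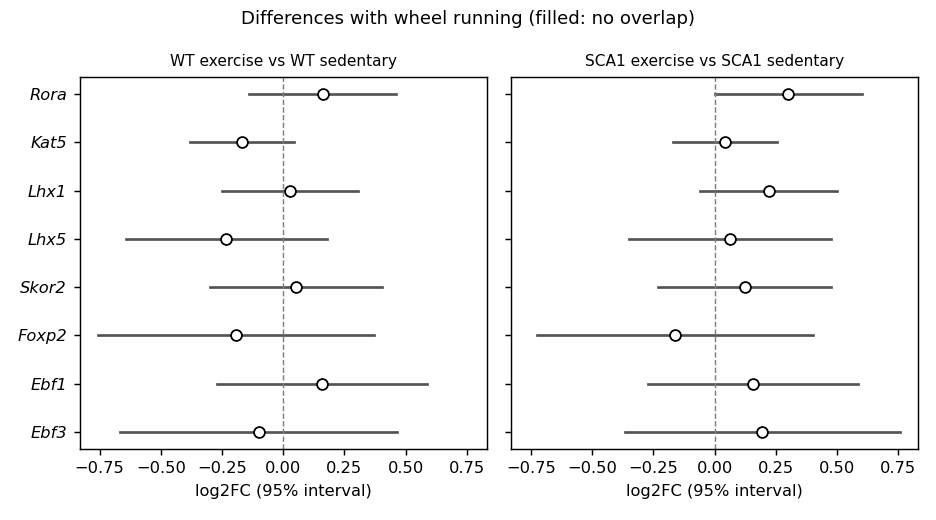
Differences of the 8 genes with wheel running as log2FC (horizontal axes, exercise minus sedentary) with 95% intervals from edgeR, in WT and in SCA1 mice. Open points mark groups whose libraries overlap, which holds for all 8 genes in both panels. The interval of Rora in SCA1 mice begins just above 0, and the other intervals cover 0.

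Rora acts on Purkinje genes, among them some of calcium signalling and glutamate uptake. A list of 5 genes reported as Rora targets was read beside it. Of these, 4 were lower in SCA1 over both activity groups, with a median log2 difference of -0.33, and 1 was called, Pcp4. Pcp4 (a calmodulin regulator of Purkinje cells) was at 25.7, 23.9 and 23.3 CPM in WT sedentary, 21.1, 25.0 and 22.7 CPM in WT exercise, 10.4, 10.7 and 11.3 CPM in SCA1 sedentary and 18.0, 13.9 and 13.5 CPM in SCA1 exercise mice. It fell by 0.88 on the log2 scale (SE 0.09, adjusted p = 0.00815, edgeR), and all SCA1 libraries lay below all WT libraries. Without mice 16 and 55 the difference was -0.93, and Pcp4 was again called. It was then also called between the genotypes in exercise mice alone (-0.73, adjusted p = 0.0189, edgeR). With all libraries it was not called there (-0.60, adjusted p = 0.960).

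Pcp2, a modulator of G protein signalling, had a difference of -0.51 (SE 0.12, adjusted p = 0.146). It was at 160.4 to 207 CPM in WT and at 89.3 to 170.5 CPM in SCA1, and without mice 16 and 55 the difference was -0.48 (adjusted p = 0.0137). Slc1a6, the Purkinje glutamate transporter EAAT4, had -0.33 (SE 0.08, adjusted p = 0.188), and Itpr1, the calcium release channel of the endoplasmic reticulum, had -0.33 (SE 0.11, adjusted p = 0.348). Shh, the secreted mitogen for granule cell precursors, had 0.13 (SE 0.25, adjusted p = 0.870), with its highest values in mice 55 and 16 at 5.68 and 4.80 CPM. Without these mice Shh was at -0.25 (adjusted p = 0.640), Slc1a6 at -0.27 and Itpr1 at -0.28, so that all 5 targets were then lower in SCA1. Unadjusted p values under 0.05 were found for the 4 lower genes.

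With running in SCA1 mice, Pcp4 differed by 0.49 (SE 0.13, 95% interval 0.20 to 0.78, unadjusted p = 0.00294, adjusted p = 0.999, edgeR) and its SCA1 groups did not overlap. The interaction for Pcp4 was 0.57 (unadjusted p = 0.00907, adjusted p = 0.9999). Without mice 16 and 55, of which mouse 55 had the highest SCA1 level, the difference with running was 0.32 (95% interval 0.04 to 0.59, unadjusted p = 0.0270, adjusted p = 0.565). The interaction was then 0.39 (adjusted p = 0.285).

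**Figure D4:**
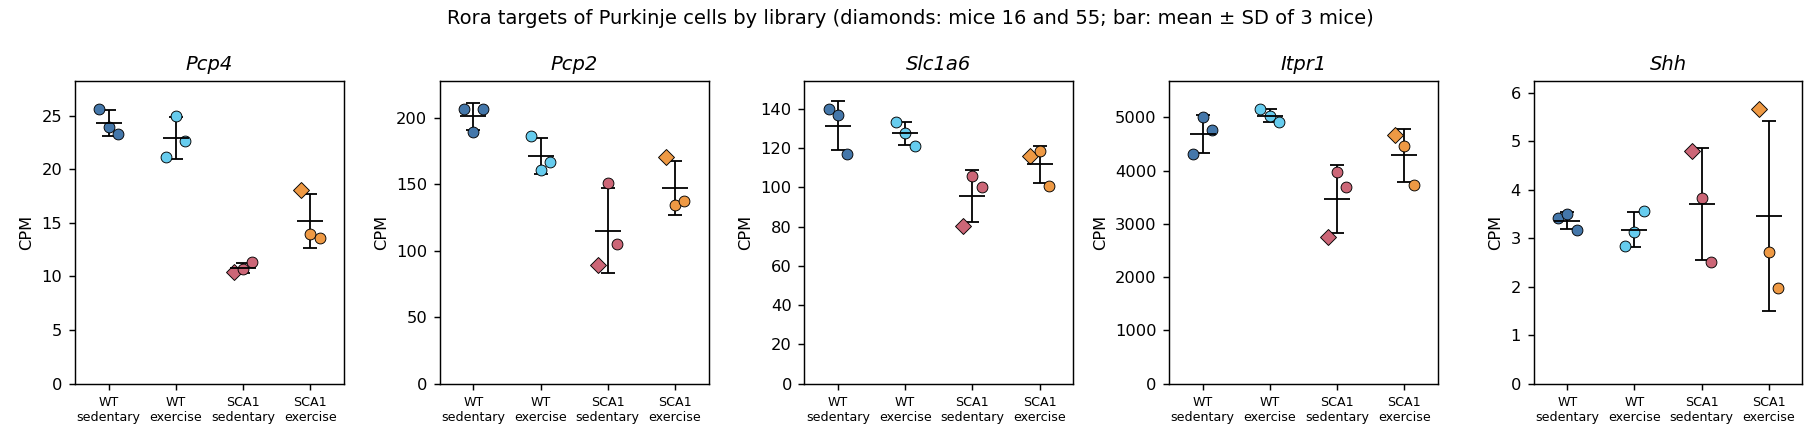
Level in CPM (vertical axes, from 0) of the 5 Rora targets in the 12 libraries by group. Points are single mice, diamonds are mice 16 and 55, and bars give the mean ± SD of 3 mice. Pcp4 is at 10.4 to 18.0 CPM in SCA1 and at 21.1 to 25.7 CPM in WT mice, and Shh varies most among SCA1 mice.

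Purkinje cell markers that are not transcription factors, a list that shares Pcp4, Pcp2, Slc1a6 and Itpr1 with the Rora targets, also differed between the genotypes. All 12 were lower in SCA1 over both activity groups at an unadjusted p under 0.05, with a median of -0.46. Of them 2 were called, Pcp4 and Calb1 (calbindin, a calcium buffer, -0.54, SE 0.08, adjusted p = 0.0278, edgeR). All 12 were again lower without mice 16 and 55, with a median of -0.47 and 2 called. These were Pcp4 and Rgs8 (a regulator of G protein signalling, -0.55, adjusted p = 0.0013), while Calb1 at -0.49 (adjusted p = 0.0060) fell short of the fold limit. Their summed level was 8910 to 10059 CPM in WT and 5469 to 8908 CPM in SCA1 libraries, which did not overlap, and 6799 to 8281 CPM in SCA1 without mice 16 and 55.

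Each member was therefore also read relative to the mean log2 CPM of these 12 markers, a scale chosen after the values had been seen. On it Lhx1 was at -2.16 ± 0.0570 in WT and -2.07 ± 0.134 in SCA1 libraries (SD, n = 6 each), a difference of 0.09 with overlapping ranges. The difference was 0.20 for both Skor2 and Lhx5, and 0.25 for Rora, again with overlapping ranges. It was 0.44 for Kat5, 0.52 for Foxp2, 0.54 for Ebf1 and 0.73 for Ebf3. All 12 markers were lower in SCA1, so a gene at the same level in both genotypes comes out higher on this scale. Kat5, with a log2FC of -0.03 in edgeR, is an example. The values of all 8 genes were higher in SCA1 on average, also without mice 16 and 55. This shows only that none was lower by as much as the marker mean. Without mice 16 and 55 the difference was 0.17 for Lhx1, 0.09 for Lhx5, 0.22 for Skor2 and 0.30 for Rora. It was then 0.45 for Kat5, 0.40 for Foxp2, 0.73 for Ebf1 and 0.46 for Ebf3, so that Ebf1 had the largest. How far the lower Purkinje marker level accounts for the lower Lhx1 level was not tested.

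**Figure D5:**
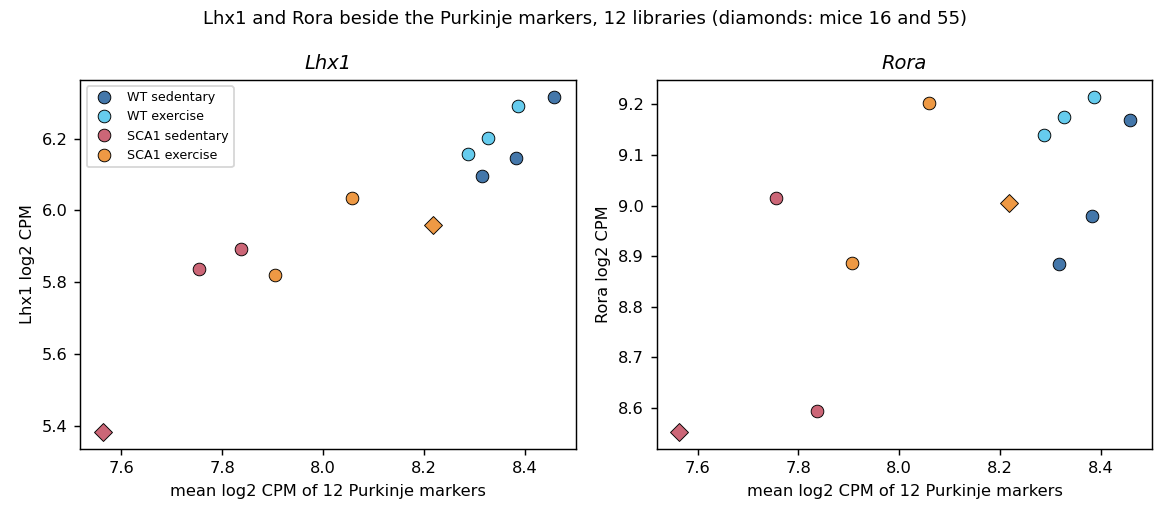
Log2 CPM of Lhx1 and of Rora (vertical axes) against the mean log2 CPM of 12 Purkinje markers (horizontal axes) in the 12 libraries, coloured by group, with diamonds for mice 16 and 55. Lhx1 lies near a rising line with mouse 16 at the lower left, and Rora spreads more widely at a given marker level.

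The partners of these factors showed 0 calls over both activity groups in edgeR, with or without mice 16 and 55. Of the 17 other subunits of the Tip60 complex 8 were higher and 9 lower in SCA1, with a median of -0.04 and 0 at an unadjusted p under 0.05. The largest differences among them were -0.22 for Ing3 (adjusted p = 0.578), a reader of methylated histone H3, and -0.19 for Actl6a (adjusted p = 0.516), an actin-related subunit. Of 11 nuclear receptor co-regulators 8 were lower, with a median of -0.07 and 2 at an unadjusted p under 0.05. These were the co-repressor Hr (-0.27, adjusted p = 0.318), which binds Rora, and the mediator subunit Med1 (-0.15, adjusted p = 0.503). Of 10 LIM cofactors 6 were higher, with a median of 0.05 and 0 at an unadjusted p under 0.05. Lmo3 and Ldb2, with 1.12 and 0.48, had their highest values in mice 16 and 55 (16.7 and 7.46 CPM for Lmo3, against at most 3.91 CPM in WT). The medians turned in sign without mice 16 and 55 for the co-regulators, to 0.04, and for the LIM cofactors, to -0.11.

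Clock genes with ROR elements in their promoters are the best known Rora targets outside the cerebellum. Of 7 such genes 6 were lower in SCA1, with a median of -0.12, 1 at an unadjusted p under 0.05 and 0 called. It was 5 of 7 without mice 16 and 55, with a median of -0.09. Nr1d1, the repressor that competes with Rora, differed by -0.20 (adjusted p = 0.528) and Bmal1 (a core clock activator) by -0.19 (adjusted p = 0.479).

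Among 18 tested of 24 close relatives of the 8 genes 10 were lower and 8 higher, with a median of -0.05 and 0 called. Lmx1b and Lmx1a, LIM-homeodomain genes of the hindbrain and its roof plate, differed by 3.81 (adjusted p = 0.188) and 0.73 (adjusted p = 0.631). Lmx1b was at 5.58 and 8.61 CPM in mice 16 and 55 and at most at 2.00 CPM in the other SCA1 libraries. Of 11 tested of 15 other factors of the Purkinje lineage 7 were higher, with a median of 0.06 and 0 called, led by Pax5 (2.90, adjusted p = 0.361) and Olig2 (0.52, adjusted p = 0.584). Olig2 was at 29.2 and 19.8 CPM in mice 16 and 55 and at 8.47 to 12.7 CPM in the other SCA1 libraries. The median of these factors was -0.07 without mice 16 and 55. Among the close relatives, of which 19 were then tested, the median was 0.01. The calls then included Ebf4, at 0.58 (adjusted p = 0.0314), against 0.53 (adjusted p = 0.142) with all libraries.

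Markers of the other cell types differed as follows between SCA1 and WT over both activity groups, with 0 called in edgeR in each list. The medians were -0.28 for 9 granule cell markers (Cbln3 -0.45, Neurod1 -0.41), -0.06 for 9 interneuron markers (Slc6a5 1.18, Eomes -0.64) and -0.16 for 7 markers of Bergmann glia and astrocytes (Gdf10 -0.37, Gfap 0.30). They were 0.35 for 6 oligodendrocyte markers (Mag 0.41, Mbp 0.39), 0.17 for 5 microglia markers (C1qa 0.30, Csf1r 0.22) and -0.05 for 7 markers of endothelium and mural cells (Pecam1 -0.08, Vtn 0.06). For 5 choroid plexus markers the median was 0.74 (Kl 1.11, Folr1 0.99), for 7 tested of 9 brainstem markers 4.93 (Hoxa5 6.23, Hoxb5 5.32), and for 4 chromosome Y genes -0.82 (Eif2s3y -0.84, Kdm5d -0.83). Hoxa5 and Hoxb5 were at 6.74 to 9.92 CPM in mice 16 and 55 and at most 0.343 CPM in the other SCA1 libraries. Slc6a5 was at 184 and 144 CPM in mice 16 and 55, at 37.9 to 54.8 CPM in the other SCA1 libraries and at 30.6 to 40.0 CPM in WT. Gfap was at 272 and 237 CPM in mice 16 and 55, at 91.2 to 118 CPM in the other SCA1 libraries and at 100 to 164 CPM in WT. Several of these values changed without mice 16 and 55. The median was -0.11 for granule cells, -0.28 for Bergmann glia and astrocytes, -0.09 for oligodendrocytes, -0.11 for microglia, 0.02 for endothelium and mural cells, 0.40 for choroid plexus and 0.90 for the 3 brainstem markers then tested, so that oligodendrocyte and microglia markers turned in direction. The median summed level of oligodendrocyte markers was 2767 CPM in these 4 SCA1 libraries against 3061 CPM in WT, and that of microglia markers 52.7 against 58.6 CPM. Eomes was then called (-0.72, adjusted p = 0.0096). The part of these markers in the members' differences was not tested.

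The genes whose log2 CPM followed members most closely over the 12 libraries, of 16892 compared, are given as a description, since the libraries share genotype and the 2 libraries that stand apart. For Rora they were Ptar1 (Pearson r 0.969, Spearman rho 0.930), Rfx3 (0.959 and 0.874) and Rgs7bp (0.956 and 0.902). For Kat5 it was Eid2 (r 0.907, rho 0.797), for Lhx5 Prxl2a (r 0.906, rho 0.839), for Ebf1 the unclassified transcript Gm37899 (r 0.955, rho 0.860) and for Ebf3 Casz1 (r 0.947, rho 0.846). For Foxp2 it was Tcf7l2 (r 0.919, rho 0.615) and for Skor2 Pcdhgc3 (r 0.931, rho 0.580), pairs in which the rank correlation was much the lower.

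Promoters of the members and the Rora targets were searched because Rora binds DNA at ROR elements and EBF factors at a palindrome. The windows, read from GRCm39, ran from 250 bases before to 50 after the canonical start of GENCODE M39. The letters sought on both strands were TAGGTCA and TGGGTCA for the ROR element, CCCNNGGG for EBF factors, TAATTA for LIM-homeodomain factors and TGTTTAC for forkhead factors. In 14642 promoters of tested protein-coding genes they were found in 5.35%, 16.7%, 3.26% and 2.68%. Among the 8 members and 5 targets the EBF letters were found in Kat5 and Itpr1, 182 and 116 bases before the start, and in Rora and Ebf3, 20 and 24 bases after it. The other letters were found in 0 of these 13 windows. The 250 bases before the start are shown for Lhx1 and Pcp4, whose SCA1 and WT libraries did not overlap, and for Kat5 and Itpr1, which hold the EBF letters, here in capitals. They lie at chr11:84416369-84416618 (minus strand), chr16:96268556-96268805 (plus strand), chr19:5660266-5660515 (minus strand) and chr6:108189798-108190047 (plus strand).
Lhx1: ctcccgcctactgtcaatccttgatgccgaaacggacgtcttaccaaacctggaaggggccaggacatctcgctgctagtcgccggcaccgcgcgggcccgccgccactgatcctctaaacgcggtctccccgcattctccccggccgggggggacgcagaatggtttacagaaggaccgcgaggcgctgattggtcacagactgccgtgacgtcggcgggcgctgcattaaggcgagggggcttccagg
Pcp4: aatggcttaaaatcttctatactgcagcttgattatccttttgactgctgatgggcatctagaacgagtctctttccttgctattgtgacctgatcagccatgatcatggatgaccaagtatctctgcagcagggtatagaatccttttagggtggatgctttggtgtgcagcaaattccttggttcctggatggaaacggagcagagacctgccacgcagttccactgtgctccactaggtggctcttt
Kat5: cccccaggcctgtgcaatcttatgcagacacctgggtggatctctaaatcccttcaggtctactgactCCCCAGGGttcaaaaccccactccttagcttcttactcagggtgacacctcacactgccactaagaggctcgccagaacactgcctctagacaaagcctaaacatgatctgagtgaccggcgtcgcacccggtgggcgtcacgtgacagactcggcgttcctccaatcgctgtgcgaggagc
Itpr1: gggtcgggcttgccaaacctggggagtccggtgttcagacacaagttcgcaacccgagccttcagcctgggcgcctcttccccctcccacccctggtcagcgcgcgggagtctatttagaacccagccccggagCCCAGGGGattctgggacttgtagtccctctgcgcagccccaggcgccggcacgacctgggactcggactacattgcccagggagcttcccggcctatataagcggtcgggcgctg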

How the data were processed

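RNA of cerebellum from 12 mice, 3 per group, was prepared by the authors with TRIzol, ribosomal RNA depletion and a directional library kit. Per the labels and the study's methods, read pairs were trimmed with fastp 0.24.0 and aligned to GRCm39 with STAR 2.7.10a, which counted them per gene. What the authors deposited are raw counts for each gene, in read pairs, unstranded and per strand, without normalization. The annotation behind the counts was not given in the sources used here.

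Counts on the reverse strand were taken, in all 20556802 to 32127508 for a library, and their precision is limited by 3 mice per group more than by counting. Of 56941 genes, 56323 matched GENCODE M39 by Ensembl ID and 618 did not. Summary lines without a gene (39.3% to 58.7% of read pairs had no gene on that strand) stayed out of library sizes. TMM library sizes served for CPM, and 2 was the prior count in log2 CPM. In R 4.3.3, edgeR 4.0.16 (filterByExpr, TMM, glmQLFit, glmQLFTest) fitted the 4 groups in a single model, with Benjamini-Hochberg adjustment over 20341 genes. Exact two-sided permutation tests used log2 CPM. DESeq2, the tool the study also used, was run here in version 1.42.0 as an alternative. Others were RLE size factors, edgeR on the groups compared, genes with at least 1 count, unstranded counts and chromosome Y genes as a covariate. Mice were also left out singly or as the pair 16 and 55. The fits were tested on simulated data.

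The 8 genes and all lists (close relatives, Rora targets, clock genes, Tip60 complex, nuclear receptor co-regulators, LIM cofactors, other Purkinje lineage factors and markers of Purkinje, granule, interneuron, Bergmann glia and astrocyte, oligodendrocyte, microglia, endothelium and mural, choroid plexus, brainstem and chromosome Y) were chosen with earlier results of these data known. Named genes were the 8 in every comparison, Atxn1, the Rora targets, the called genes of each other list with the pair of largest absolute log2FC where the average log2 CPM was 0 or above, and the genes most like each member by Pearson r. Some of the genes so chosen are not reported here.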

Additional observations from a re-analysis of the deposited data

Results flagged for a closer look

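The Foxp2 level of WT sedentary mouse 192, 20.6 CPM, stood far from those of the other 5 WT libraries, which ran from 10.4 to 13.9 CPM. Its gap to the nearest of them was 0.665 of the range of the 6 WT libraries, above Dixon's 95% critical value for 6 samples. In all, 16 groups of 6 libraries were examined in this way (8 genes in WT and in SCA1), and chance alone flags about 1 in 20 groups.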

How the results depend on the processing

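Of 896 combinations of a log2FC of the 8 genes with an alternative setting, 843 kept the sign and the side of the threshold and 53 changed sign, all at an adjusted p above 0.05. The call count of 0 held in each comparison under each setting with both limits. Without the limit on the log2FC, DESeq2 counted 1 gene between SCA1 and WT over both activity groups with all 12 libraries and 1 without mice 16 and 55, Lhx1 each time, settings chosen after the data had been seen. The adjusted p of Lhx1 in that comparison ranged from 0.00864 to 0.531 over all settings of both tools. The sign changes otherwise concerned Foxp2, Ebf1, Ebf3 and differences near 0. Without mice 16 and 55, sedentary SCA1 against WT gave -0.26 for Foxp2 and -0.083 for Ebf3, SCA1 exercise against sedentary gave -0.20 for Lhx5, 0.16 for Foxp2 and -0.078 for Skor2, the genotype difference over both activity groups gave -0.086 for Foxp2, and the interaction gave -0.14 for Skor2. With chromosome Y genes as a covariate, WT exercise against sedentary gave -0.0062 for Lhx1 and -0.029 for Skor2, and the interaction 0.0014 for Ebf1. With unstranded counts, Kat5 was at -0.023 in SCA1 exercise against sedentary and at -0.0010 in SCA1 against WT exercise, and the Ebf1 interaction was 0.024, as against 0.0092 with genes of at least 1 count. The causes were not tested.

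Leaving out each mouse in turn changed 39 signs. In sedentary SCA1 against WT the log2FC ran from -0.28 to 0.35 for Foxp2, -0.15 to 0.29 for Ebf1 and -0.10 to 0.30 for Ebf3. In WT exercise against sedentary it ran from -0.018 to 0.11 for Lhx1, -0.38 to 0.14 for Foxp2 and -0.016 to 0.12 for Skor2. In SCA1 exercise against sedentary it ran from -0.18 to 0.22 for Lhx5, -0.31 to 0.15 for Foxp2, -0.0014 to 0.28 for Skor2, -0.039 to 0.40 for Ebf1 and -0.17 to 0.47 for Ebf3. In SCA1 against WT exercise it ran from -0.35 to 0.046 for Lhx5, -0.048 to 0.12 for Foxp2 and -0.069 to 0.24 for Ebf1. Over both activity groups it ran from -0.062 to 0.0034 for Kat5, -0.11 to 0.20 for Foxp2 and -0.027 to 0.19 for Ebf1, and for the interaction from -0.30 to 0.34 for Foxp2, -0.054 to 0.23 for Skor2, -0.20 to 0.24 for Ebf1 and -0.071 to 0.57 for Ebf3. With 3 mice per group precision was low, and over both activity groups WT and SCA1 libraries overlapped for 7 of the 8 genes. No paired analysis was possible because the groups share no mouse numbers.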
